A study of Mus musculus with 41 samples.

Results

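Epidermal stem cells from mice on a high fat diet were compared with those from mice on a control diet at zeitgeber time 20 (ZT20), that is 20 h after lights on and late in the dark phase. The comparison used the 8 arrays of that time point, 4 labelled high fat diet T20 and 4 labelled control diet T20, out of 41 arrays in the series, and it covered every gene that the platform annotation names with its own probe set (17097 genes). In both groups the cells came from the epidermis of wild type female C57B6/J mice aged 15 weeks, which had eaten their diet ad libitum for 7 weeks from the age of 8 weeks. The high fat group received a high fat diet and the control group the control diet made to match it, and the labels name no other treatment or allele. The other 33 arrays cover both diets at ZT0, ZT4, ZT8, ZT12 and ZT16, which are 4 h apart, and they entered the fit through its shared estimate of spread and through the contrasts between time points. The labels number the replicates but do not tie each array to its own mouse, and p-values therefore reflect differences among arrays, which may be technical. Mice killed on 1 day belonged to 1 time point, and whether both diets shared that day is not settled by the design text, so diet and collection day at ZT20 cannot be told apart.

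Epidermal stem cells sit in the basal layer and in the hair follicle, attach to the basement membrane through integrins, and renew the skin. A circadian clock runs in them, in which BMAL1 and CLOCK bind E-box sequences and drive their own repressors, the period and cryptochrome genes, together with output genes. In mouse epidermis the clock is known to set apart in time the phases of oxidative metabolism and of DNA replication. Oxidative phosphorylation is the mitochondrial process in which electron transport complexes and ATP synthase make ATP, and its subunit genes, like those of the ribosome and the proteasome, are commonly expressed together.

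The 8 arrays were closely alike. Correlations over all probe sets were 0.989 to 0.994 within the high fat group, 0.987 to 0.994 within the control group and 0.985 to 0.992 between the diets. Medians over all probe sets were 6.42 to 6.43 in the high fat arrays and 6.41 to 6.42 in the control arrays, on the log2 scale, and they did not overlap between the diets. The 3′ minus 5′ log2 difference of the Gapdh control probe sets, a measure of RNA integrity, was -0.35 to -0.32 in the high fat arrays and -0.36 to -0.31 in the control arrays. The same measure for Actb was -0.60 to -0.52 in the high fat arrays and -0.56 to -0.54 in the control arrays, so neither separated the diets. Keratinocyte genes of the basal layer were bright. The basal keratin genes Krt14 and Krt5 averaged 12.76 ± 0.04 and 12.63 ± 0.03 in the high fat arrays (SD, n = 4), and 12.67 ± 0.02 and 12.61 ± 0.03 in the control arrays (SD, n = 4). Itga6, the integrin gene commonly used to isolate basal cells, averaged 11.22 ± 0.13 in the high fat arrays and 11.21 ± 0.16 in the control arrays. Suprabasal genes were bright as well, with Krt10 at 11.91 in the high fat arrays and 11.92 in the control arrays. None of the 106 measured markers of 12 other cell types or structures passed the test, and the smallest adjusted p among them was 0.0865. Beside each gene it names below, RNA from fewer cells of a type and less RNA per cell cannot be told apart in these bulk samples.

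At an adjusted p under 0.05, 120 of 17097 genes (0.702%) differed between the diets at ZT20, with 53 higher (0.31%) and 67 lower (0.392%) on the high fat diet. At an unadjusted p under 0.05, 2533 genes (14.8%) differed, 1274 higher (7.45%) and 1259 lower (7.36%). Over all genes, 51.3% of the differences were positive and 48.7% negative. The changes were small. The median absolute difference was 0.38 on the log2 scale among the 120 genes, against 0.08 over all genes tested, and 16 of them changed at least 1.5-fold, 6 higher and 10 lower. In 111 of the 120, every array of 1 diet lay above every array of the other diet, against 7.56% of all genes. Of these, 50 lay higher on the high fat diet, against 3.97% of all genes, and 61 lower, against 3.59%. The genes were chosen by the diet difference on these same arrays, so the separation follows largely from that choice and is no support for it. Rises made up 44.2% of the 120 genes, but 32.6% of 132 once the median of each array was subtracted. The number of calls depended on the shared spread and on single arrays. The 8 arrays fitted alone gave 0 genes past the threshold (limma), with a smallest adjusted p of 0.0598 and 2320 genes at an unadjusted p under 0.05. The group means are the same in that fit, so the direction of each gene was fixed. All 120 genes kept an unadjusted p under 0.05 in it, which also follows largely from their choice on these same arrays and is no support. Leaving out 1 array at a time gave between 20 genes (without high fat replicate 2) and 302 genes (without control replicate 2). It gave 26, 37 and 34 without control replicates 1, 3 and 4, and 83, 40 and 79 without high fat replicates 1, 3 and 4. Of the 120 genes, 10 passed in all 8 of these fits, 46 in 3 to 7 and 64 in 2 or fewer.

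**Figure D1:**
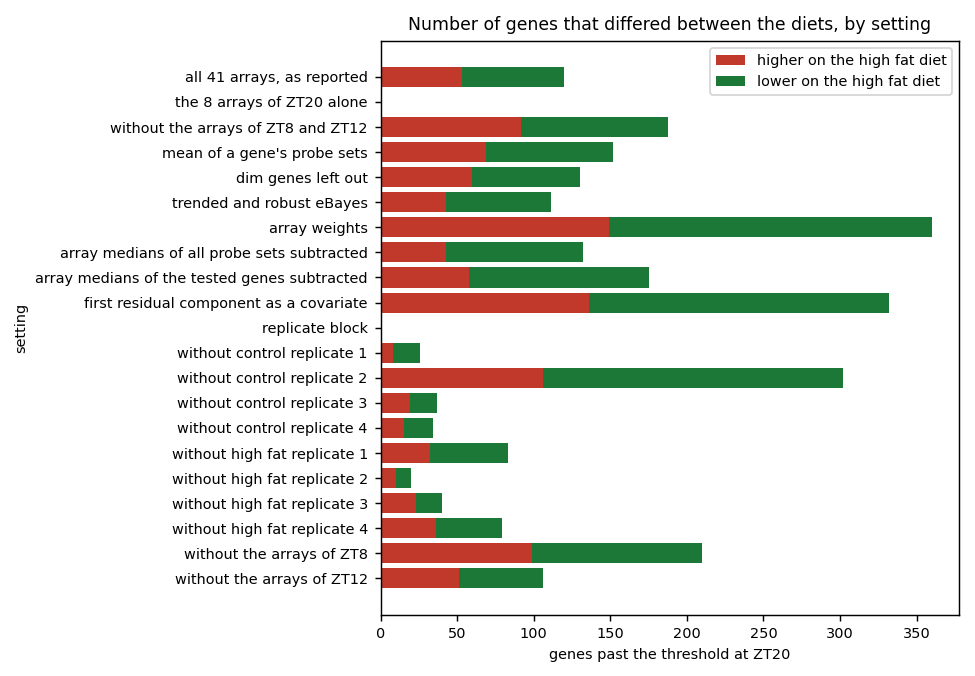
Number of genes past the threshold at ZT20 (adjusted p under 0.05, limma), higher on the high fat diet in red and lower in green, as stacked bars for each processing setting. The fit to all 41 arrays gave 120 genes, the fit to the 8 arrays alone and the fit with a replicate block gave 0, and leaving out control replicate 2 gave 302.

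Among the genes that rose on the high fat diet, the largest change was in Apbb3, which encodes an adaptor that binds the amyloid precursor protein. Apbb3 had 8.71, 8.35, 7.94 and 8.19 in the high fat arrays, against 7.18, 7.06, 7.54 and 7.34 in the control arrays. The lowest high fat array lay above the highest control array. The difference was 1.02 ± 0.16 (SE, log2), a 2.02-fold rise with an adjusted p of 0.0048. It passed in all 8 fits that left out an array and was the only gene to change at least 2-fold. Smox, which encodes spermine oxidase, an enzyme of polyamine breakdown, had 8.59, 8.83, 8.78 and 8.79 in the high fat arrays, against 8.34, 8.05, 8.23 and 8.22 in the control arrays. Those groups did not overlap either, and the difference was 0.54 ± 0.10 (SE, adjusted p = 0.0125).

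Itga5, Tgfb1 and Parva were among the 20 largest rises. Itga5, which encodes the alpha subunit of a fibronectin receptor, had 5.76, 7.22, 5.68 and 5.82 in the high fat arrays, against 5.34, 4.96, 5.22 and 5.02 in the control arrays. High fat replicate 2 stood above the rest, and the other 3 still lay above all controls. The mean of the non-specific control probe sets, a guide to the floor, was 5.13 to 5.26 in the control arrays. In the high fat arrays it was 5.18 to 5.29. Itga5 thus lay near the floor in the control arrays and was removed by a filter on dim genes. Its difference was 0.98 ± 0.23 (SE, adjusted p = 0.036), and it passed in 4 of the 8 fits that left out an array. Parva, which encodes a parvin that links integrins to actin, averaged 8.78 ± 0.13 in the high fat arrays and 8.23 ± 0.19 in the control arrays (SD, n = 4 each), a difference of 0.54 ± 0.13 (SE, adjusted p = 0.0432) that passed in 1 of the 8 fits. Tgfb1, the gene of a growth factor that restrains keratinocyte proliferation, had 7.95, 7.80, 7.57 and 7.48 in the high fat arrays, against 6.45, 6.98, 7.30 and 6.85 in the control arrays. All high fat arrays lay above all control arrays, with a difference of 0.80 ± 0.20 (SE, adjusted p = 0.0446) that passed in 2 of the 8 fits that left out an array. Of 25 measured TGF-beta and BMP genes, Tgfb1 was the member that rose and none fell, against 0.31% and 0.392% of all genes. The list's median of 0.08 compares with 0.004 over all genes.

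Egfr, named after its values were seen, and Notch1 rose by smaller amounts. Egfr, the epidermal growth factor receptor gene, had 10.91, 10.87, 10.75 and 10.85 in the high fat arrays against 10.57, 10.52, 10.47 and 10.44 in the control arrays, with no overlap. Its difference was 0.35 ± 0.07 (SE, adjusted p = 0.0208). Notch1, the gene of a receptor that promotes the exit of keratinocytes from the basal layer, had 11.14, 11.19, 11.20 and 11.14 in the high fat arrays, against 10.91, 10.91, 10.88 and 10.88 in the control arrays. The arrays of each diet were close together, and the difference was 0.27 ± 0.06 (SE, adjusted p = 0.0432), which passed in 1 of the 8 fits that left out an array. Notch1 was the 1 of 18 measured Notch pathway genes that passed, against 0.702% of all genes. Of the 18 differences, 11 were positive, against 51.3% of all genes, with a median of 0.06. Other members did not pass. Rfng, a glycosyltransferase gene that modifies Notch, differed by 0.35 (adjusted p = 0.104), Notch2 by 0.28 (0.204) and the target Hes1 by 0.31 (0.53). Il17rd, the gene of an inhibitor of fibroblast growth factor signalling, rose by 0.54 ± 0.12 (SE, adjusted p = 0.025), and Sh3kbp1, an adaptor of receptor endocytosis, by 0.52 ± 0.12 (SE, adjusted p = 0.0364). Other probe sets of Sh3kbp1 differed by 0.12, -0.04 and -0.23, so its rise rests on the brightest probe set. That rise passed in 1 of the 8 fits that left out an array. The other probe set of Il17rd differed by 0.17.

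Genes of 3 histone H3 lysine methyltransferases of the KMT2 family rose. Kmt2b had 9.51, 9.51, 9.28 and 9.51 in the high fat arrays, against 8.82, 8.92, 8.85 and 9.20 in the control arrays. Kmt2c had 11.45, 11.61, 11.59 and 11.52 in the high fat arrays, against 11.16, 11.35, 11.27 and 11.18 in the control arrays. Kmt2d had 11.67, 11.85, 11.63 and 11.67 in the high fat arrays, against 11.16, 11.49, 11.31 and 11.47 in the control arrays. In each of these genes the lowest high fat array exceeded the highest control array. The differences were 0.51 ± 0.12 for Kmt2b (adjusted p = 0.0432), 0.30 ± 0.06 for Kmt2c (0.0133) and 0.35 ± 0.07 for Kmt2d (0.0208), each with its SE. All 4 probe sets of Kmt2c lay between 0.27 and 0.30. Setd1b, of the same enzyme family, differed by 0.41 (adjusted p = 0.198), and Kmt2e, a related gene, by 0.02 (adjusted p = 0.955). The list of 24 histone and DNA methylation and acetylation genes had these 3 rises and no falls, against 0.31% and 0.392% of all genes, and a median of 0.05. Its other members did not pass, including the polycomb methyltransferase gene Ezh2 (-0.01) and the acetyltransferase gene Crebbp (0.16). Without control replicate 1 or without high fat replicate 2, 0 of them passed, and without control replicate 3 only 1 did.

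Polr2a and Arid1a, named after their values were seen, also rose. Polr2a, the largest subunit of RNA polymerase II, averaged 9.46 ± 0.04 in the high fat arrays and 9.08 ± 0.10 in the control arrays (SD, n = 4 each; difference 0.38 ± 0.09, SE, adjusted p = 0.0393). Arid1a, a subunit of the SWI/SNF chromatin remodeller, rose by 0.29 ± 0.07 (SE, adjusted p = 0.0381). Spen and Atn1, which encode transcriptional corepressors, rose by 0.41 each (adjusted p = 0.0292 and 0.0432), as did Tead3, which encodes a DNA-binding partner of the Hippo pathway coactivators (0.41, adjusted p = 0.0445). The other probe set of Spen differed by 0.10. Ahdc1, an AT-hook gene, rose by 0.55 ± 0.10 (SE, adjusted p = 0.0133) by its brightest probe set, whereas its other probe sets differed by 0.16 and -0.01. Zfp512b, a zinc finger gene, rose by 0.41, and its other probe set differed by 0.06. Polr2a, Atn1 and Tead3 each passed in 1 of the 8 fits that left out an array.

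Further rises were in Ubr4, named after its values were seen, and in Rnf122, Synj1, Agap1, Ero1a and Ddit3. Ubr4, which encodes a very large ubiquitin ligase, had 10.37, 10.34, 10.45 and 10.44 in the high fat arrays against 9.94, 10.22, 9.94 and 10.05 in the control arrays. The groups did not overlap, and the difference of 0.36 ± 0.06 (SE, adjusted p = 0.011) passed in all 8 fits that left out an array. Rnf122, a membrane ubiquitin ligase gene, rose by 0.64 ± 0.13 (SE, adjusted p = 0.0214), and a filter on dim genes removed it. Synj1, the gene of a phosphoinositide phosphatase of endocytosis, rose by 0.59 ± 0.11 (SE, adjusted p = 0.0142), with 9.38 to 9.56 in the high fat arrays and 8.41 to 9.10 in the control arrays. Its other probe sets differed by 0.26, 0.26 and -0.18. Agap1, which encodes an activator of Arf GTPase hydrolysis, rose by 0.56 ± 0.12 (SE, adjusted p = 0.025), and its other probe sets differed by 0.14, -0.24 and -0.27. Ero1a, an oxidase gene of disulphide formation in the endoplasmic reticulum, rose by 0.48 ± 0.10 (SE, adjusted p = 0.0229). Its other probe sets differed by 0.23 and 0.03, and the rise passed in 2 of the 8 fits that left out an array. Ddit3, the stress transcription factor CHOP, rose by 0.28 ± 0.07 (SE, adjusted p = 0.0461) and passed in 1 of the 8 fits that left out an array. It was the 1 of 23 measured unfolded protein response genes past the threshold by the brightest probe set, against 0.702% of all genes. The chaperone gene Hspa5 of that list differed by -0.02, Sel1l by 0.33 (adjusted p = 0.0529) and Pdia3, a disulphide isomerase gene, by -0.35 (adjusted p = 0.0597), and the list's median was -0.02. Another probe set of Sel1l, nearly as bright, differed by 0.25 and passed in a fit over all probe sets with a gene (adjusted p = 0.0209). The remaining rises among the 20 largest were Pkd1, a polycystin gene (0.49), Abca7, a lipid transporter gene (0.46), and Sipa1l3, a gene of a Rap GTPase activator (0.40). A filter on dim genes removed Pkd1, and Abca7 passed in 1 of the 8 fits that left out an array.

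**Figure D2:**
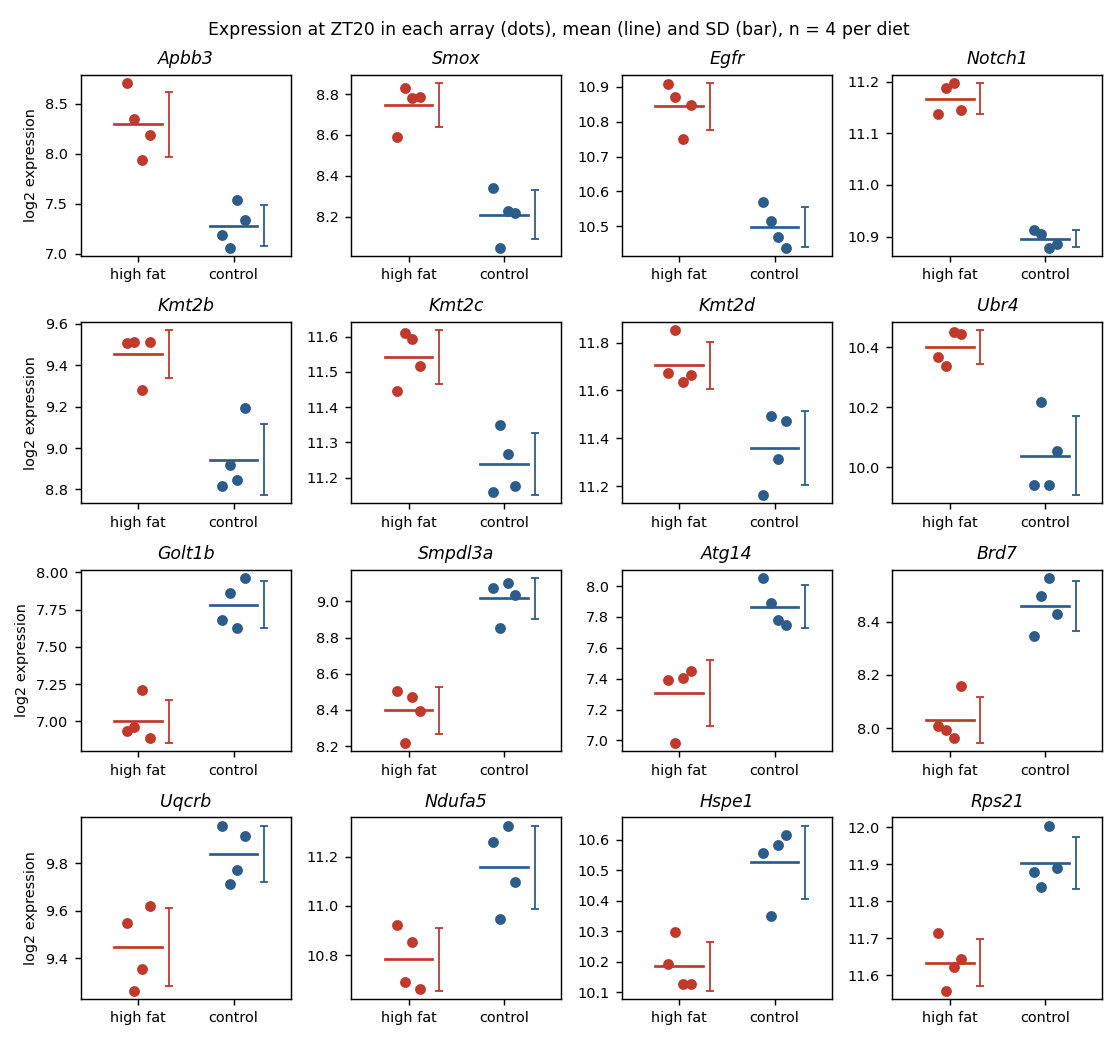
Log2 expression at ZT20 in each array, with the 4 high fat arrays in red at the left and the 4 control arrays in blue at the right of each panel, the mean as a line and the SD as a bar. The upper 8 genes lay higher in all high fat arrays than in any control array, and the lower 8 genes lay lower in all high fat arrays than in any control array. Egfr and Ubr4 were named after their values were seen.

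The falls were led by Dcakd, whose product has a dephospho-CoA kinase domain. Dcakd had 5.83, 6.25, 5.62 and 6.19 in the high fat arrays, against 7.72, 6.89, 6.84 and 6.37 in the control arrays. The groups did not overlap, but the control arrays were spread over more than 1 log2 unit, and the fall of -0.99 ± 0.24 (SE, adjusted p = 0.0437) passed in 2 of the 8 fits that left out an array. A filter on dim genes removed Dcakd. Npat, a coactivator of histone gene transcription, had 5.48, 5.82, 6.16 and 6.61 in the high fat arrays, against 6.95, 6.67, 6.86 and 7.07 in the control arrays. The high fat arrays were the more spread there, and the difference was -0.87 ± 0.20 (SE, adjusted p = 0.036). Npat passed in 2 of the 8 fits that left out an array. Golt1b, a Golgi vesicle transport gene, had 6.93, 6.97, 7.21 and 6.89 in the high fat arrays, against 7.68, 7.86, 7.62 and 7.96 in the control arrays. Its difference of -0.78 ± 0.14 (SE, adjusted p = 0.011) was well beyond the spread of either group and passed in all 8 fits that left out an array, although its other probe set differed by -0.14.

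Tsc22d3, the glucocorticoid-induced leucine zipper gene, fell in each of its probe sets. It had 8.01, 7.69, 7.83 and 7.62 in the high fat arrays, against 8.10, 8.85, 9.07 and 8.55 in the control arrays. Control replicate 1 lay just above the highest high fat array and the other controls far above it. The difference was -0.86 ± 0.20 (SE, adjusted p = 0.036), and the other probe sets gave -0.88 and -0.30. Tsc22d3 passed in 2 of the 8 fits that left out an array. It was the 1 of 15 glucocorticoid-induced genes to pass, against 0.702% of all genes. Zbtb16 differed by -0.48 (adjusted p = 0.231), Fkbp5 by -0.22 (adjusted p = 0.771) and the receptor gene Nr3c1 by 0.30 (adjusted p = 0.353), and the list's median was -0.08. The diet difference of Tsc22d3 was 1.46 at ZT16 and lay between -0.02 and 0.22 at ZT0, ZT4, ZT8 and ZT12.

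Atg101, Smpdl3a, Dram2 and Atg14 were among the 20 largest falls. Atg14, a subunit of the lipid kinase complex that starts autophagosomes, had 7.39, 6.98, 7.41 and 7.45 in the high fat arrays, against 8.05, 7.89, 7.78 and 7.74 in the control arrays. No arrays overlapped, and the difference was -0.56 ± 0.12 (SE, adjusted p = 0.0214). Atg101, a subunit of the kinase complex upstream of it, had 8.67, 7.91, 8.37 and 8.81 in the high fat arrays, against 8.95, 8.83, 9.38 and 9.14 in the control arrays, a difference of -0.64 ± 0.15 (SE, adjusted p = 0.0435). Dram2, a lysosomal membrane gene linked to autophagy, fell by 0.60 on the log2 scale (adjusted p = 0.0214), and its other probe set gave -0.54. Smpdl3a, a phosphodiesterase gene of the acid sphingomyelinase family, had 8.51, 8.22, 8.47 and 8.40 in the high fat arrays, against 9.07, 8.85, 9.10 and 9.04 in the control arrays. The groups stood clearly apart, with a difference of -0.62 ± 0.11 (SE, adjusted p = 0.011) that passed in all 8 fits that left out an array. These genes were named for the size of their fall, and the separate list of 20 autophagy and lysosome genes had no member past the threshold, with 10 positive and 10 negative differences and a median of -0.01.

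Brd7, which encodes a bromodomain subunit of a SWI/SNF complex, had 8.01, 7.99, 7.96 and 8.16 in the high fat arrays, against 8.34, 8.50, 8.56 and 8.43 in the control arrays. Its fall of -0.43 ± 0.07 (SE, adjusted p = 0.0048) passed in all 8 fits that left out an array. The other falls among the 20 largest were Sema3d, a semaphorin gene (-0.65), Btbd3 (-0.63), the ribosomal gene Mrps16 (-0.59), Tbca, a tubulin folding cofactor gene (-0.57), Sh3bp4, an adaptor gene of endocytosis (-0.57), Trmt5, a tRNA methyltransferase gene (-0.55), and Dnaaf2, a dynein assembly factor gene (-0.53). Sh2d4a (-0.53), Selenbp2, a selenium-binding protein gene (-0.52), Haus1, a subunit gene of the augmin complex of the spindle (-0.51), Pik3r3, a regulatory subunit gene of phosphoinositide kinase (-0.48), and Slco2b1, an organic anion transporter gene (-0.48), completed them. Other probe sets pointed the other way for Btbd3 (0.08) and Sh3bp4 (0.09). The other probe set of Sema3d differed by -0.02, that of Dnaaf2 by -0.19, and those of Slco2b1 by -0.50 and -0.10. Btbd3, Trmt5 and Selenbp2 each passed in 1 of the 8 fits that left out an array. Mrps16, Pik3r3 and Slco2b1 each passed in 2 of them, and Sh3bp4 in 0.

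Genes of oxidative phosphorylation were lower on the high fat diet as a group, by small amounts. Of 34 measured members, 3 fell, against 0.392% of all genes, and none rose. A negative difference was found in 33 members, against 48.7% of all genes. The members share the same 8 arrays and are commonly expressed together, so they are not independent observations. Their median was -0.21, against 0.004 over all genes. At an unadjusted p under 0.05, 22 of the 34 were lower, against 7.36% of all genes, and 7 of the 34 lay lower in every high fat array than in any control array, against 3.59% of all genes. Uqcrb, a subunit of complex III, had 9.55, 9.27, 9.36 and 9.62 in the high fat arrays, against 9.96, 9.71, 9.77 and 9.91 in the control arrays, a difference of -0.39 ± 0.08 (SE, adjusted p = 0.0208). Ndufa5, a subunit of complex I, had 10.92, 10.69, 10.85 and 10.66 in the high fat arrays, against 11.26, 10.95, 11.32 and 11.10 in the control arrays, a difference of -0.37 ± 0.08 (SE, adjusted p = 0.0208), and its other probe set gave -0.32. In both genes the highest high fat array lay below the lowest control array. Cycs, the cytochrome c gene, fell by 0.28 on the log2 scale (adjusted p = 0.0363), with -0.37 and -0.21 in its other probe sets. Cycs passed in 2 of the 8 fits that left out an array. Larger differences that did not pass were those of the succinate dehydrogenase subunit genes Sdhc (-0.57, adjusted p = 0.208) and Sdhd (-0.53, adjusted p = 0.0529).

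The mean of the 34 genes showed which arrays carried the difference. It was 10.23, 10.09, 10.12 and 10.17 in the high fat arrays, against 10.45, 10.18, 10.46 and 10.39 in the control arrays. Control replicate 2 lay among the high fat arrays and the other controls above all of them. Without control replicate 2 the median difference was -0.28 and 9 members fell. Over all fits that left out an array the median lay between -0.28 and -0.15, with 32 or 33 negative members, while the number of members past the threshold was 0 without control replicate 1 and without high fat replicate 2, and 1 without control replicates 3 or 4 or without high fat replicate 3. Genes were also taken by a pattern in their symbols, a choice made after the values were seen. A negative difference was found in 32 of 34 Nduf genes, 22 of 26 Uqcr, Cox, Cyc1 and Cycs genes and 17 of 17 Atp5 genes. The share over all genes was 48.7%. Their medians were -0.22, -0.12 and -0.16. The patterns also took in Ndufs5-ps, Ndufa4l2 and Cycs, so these sets are not exact lists of the subunits of each complex.

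Ribosomal protein genes showed the same sign with still smaller sizes. Of 31 listed cytosolic ribosomal protein genes, 2 fell, against 0.392% of all genes, and none rose. All 31 differences were negative, against 48.7% of all genes, with a median of -0.10. At an unadjusted p under 0.05, 18 of the 31 were lower, against 7.36% of all genes, and 10 lay lower in every high fat array than in any control array, against 3.59%. By symbol, again a choice made after the values were seen, 67 of 67 genes with a cytosolic ribosomal protein symbol had a negative difference. Of them 7 passed, against 0.392% of all genes. These genes share the same 8 arrays, so they are not independent observations. Rps21 averaged 11.63 ± 0.06 in the high fat arrays and 11.90 ± 0.07 in the control arrays (SD, n = 4 each). The groups did not overlap, the difference was -0.27 ± 0.05 (SE, adjusted p = 0.0142), and the other probe sets gave -0.19, -0.27 and -0.34. Rpl26 fell by 0.28, Rps26 by 0.22, Rpl7 by 0.20, Rpl7a by 0.19, Rps23 by 0.18 and Rpl34 by 0.13 on the log2 scale, with adjusted p between 0.0224 and 0.0466. Ribosomal protein genes have many near-identical processed pseudogenes, whose transcripts a probe set may not tell apart from the gene's. The mean of the 31 genes was 11.58, 11.51, 11.50 and 11.51 in the high fat arrays, against 11.69, 11.56, 11.71 and 11.67 in the control arrays, so control replicate 2 again lay nearest the high fat arrays and below high fat replicate 1.

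Mitochondrial ribosomal and proteasome genes had negative medians, with fewer members past the threshold. Mrps16 was the 1 of 26 mitochondrial ribosomal protein genes that fell, against 0.392% of all genes. It had 7.91, 7.65, 7.62 and 8.12 in the high fat arrays, against 8.77, 8.07, 8.54 and 8.30 in the control arrays (adjusted p = 0.0432). Control replicate 2 lay below the highest high fat array there. Mrps16 passed in 2 of the 8 fits that left out an array. The list's median was -0.13, with 21 negative differences, against 48.7% of all genes, and Mrpl27 differed by -0.68 (adjusted p = 0.121). None of 31 proteasome genes passed, 24 differences were negative, against 48.7% of all genes, and the median was -0.11. Psma1, a subunit of the catalytic core, differed by -0.38 (adjusted p = 0.0708). The proteasome mean came to 9.96, 9.92, 9.92 and 9.97 in the high fat arrays, against 10.20, 9.85, 10.13 and 10.11 in the control arrays, with control replicate 2 the lowest of all 8. Without control replicate 2 the proteasome median was -0.23 and 7 members fell. That array also took the list median of the mitochondrial ribosomal proteins to -0.20 when it was left out. Its part in these results was measured by leaving it out, and the reason for its levels was not tested.

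Hspe1 and Btf3 also fell, as did Spcs1, Vbp1, Pfdn5 and Paics, which were named after their values were seen. Hspe1, the cofactor of the mitochondrial chaperonin, had 10.19, 10.30, 10.13 and 10.13 in the high fat arrays, against 10.56, 10.35, 10.58 and 10.62 in the control arrays. The groups did not overlap, and the difference of -0.34 ± 0.06 (SE, adjusted p = 0.011) passed in all 8 fits that left out an array. Hspe1 was the 1 of 16 measured heat shock genes that passed, against 0.702% of all genes. The list's median was -0.02, with Hspa1b at 0.15 and Hsp90aa1 at -0.12. Btf3, a subunit of the complex that binds nascent polypeptides, had 11.37, 11.41, 11.37 and 11.50 in the high fat arrays, against 11.65, 11.54, 11.63 and 11.64 in the control arrays. That gave -0.20 ± 0.04 (SE, adjusted p = 0.011). Spcs1, a signal peptidase subunit gene, fell by 0.31, and the prefoldin genes Vbp1 and Pfdn5 fell by 0.43 and 0.24 on the log2 scale (adjusted p = 0.011, 0.0437 and 0.0445). Paics, an enzyme gene of purine synthesis, fell by 0.47 (adjusted p = 0.0433). Vbp1 and Paics each passed in 2 of the 8 fits that left out an array, and Pfdn5 in 1.

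**Figure D3:**
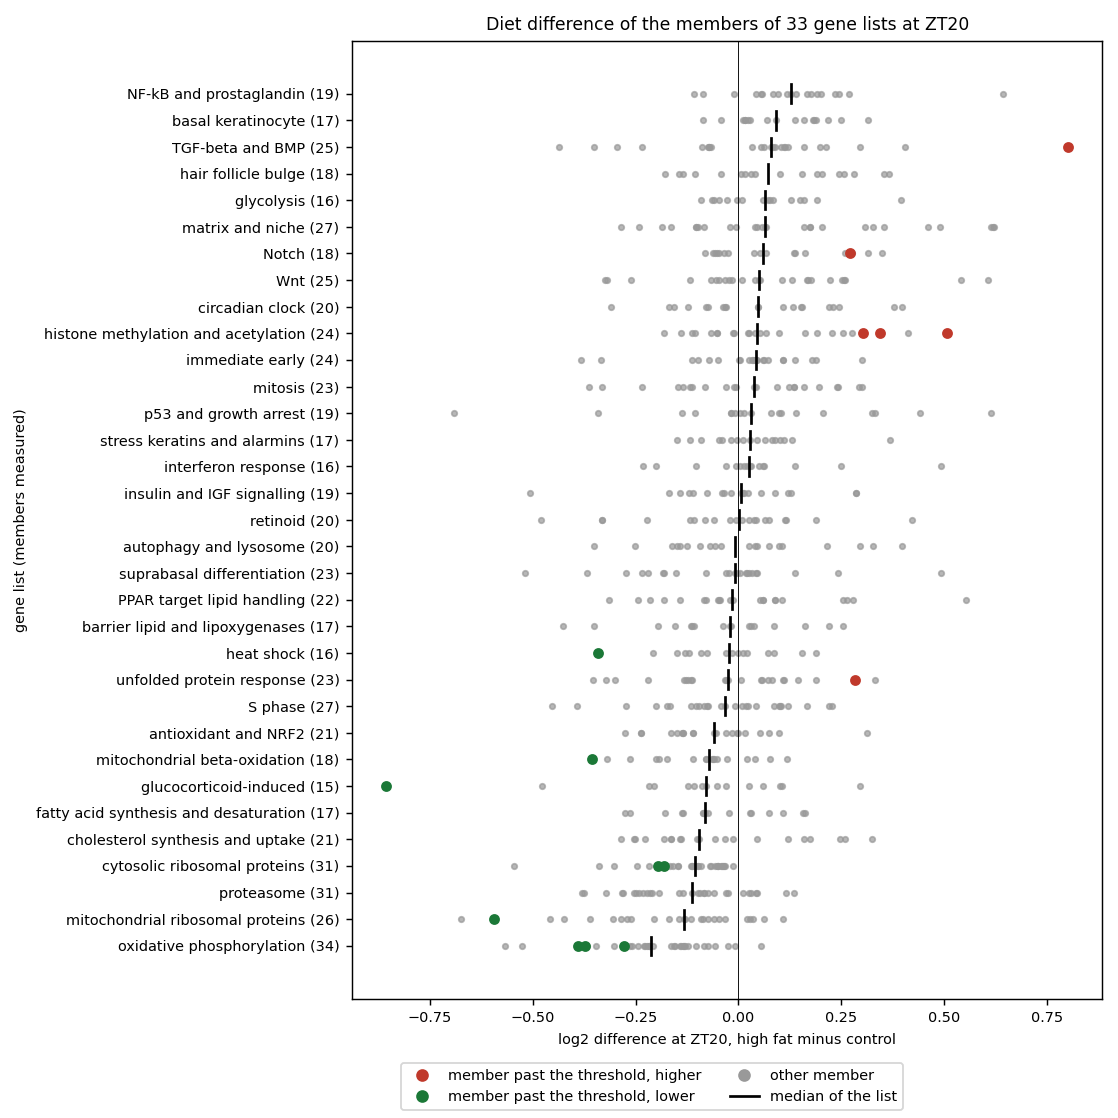
Log2 difference at ZT20, high fat minus control, of every measured member of 33 gene lists, 1 row per list, ordered by the list's median (black bar); red and green dots passed the threshold, grey dots did not. Oxidative phosphorylation has the lowest median (-0.21) and 3 green dots, and the histone list has 3 red dots.

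Of the listed lipid metabolism genes, a single enzyme gene changed. Hadhb, a subunit of the mitochondrial trifunctional protein of fatty acid oxidation, had 9.30, 9.40, 9.30 and 9.29 in the high fat arrays, against 9.63, 9.71, 9.69 and 9.68 in the control arrays. The groups stood clear of each other, and the difference was -0.36 ± 0.09 (SE, adjusted p = 0.0435), although it passed in 0 of the 8 fits that left out an array. The other probe set of Hadhb differed by -0.19. None of the other 17 mitochondrial beta-oxidation genes passed, among them the carnitine transferase gene Cpt1a (0.02, adjusted p = 0.959), Decr1 (-0.32, adjusted p = 0.411) and Echs1 (-0.26, adjusted p = 0.377), and the list's median was -0.07. No PPAR target, fatty acid synthesis or cholesterol gene passed, of 22, 17 and 21 measured, and their medians were -0.02, -0.08 and -0.10. Ppargc1b, a coactivator gene, differed by 0.55 (adjusted p = 0.0708), the lipid droplet gene Plin2 by -0.32 (adjusted p = 0.122), and the fatty acid uptake gene Cd36 by 0.06 (adjusted p = 0.62). Pdk4, a starvation-induced kinase gene, differed by -0.02 (adjusted p = 0.96).

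No circadian clock gene passed at ZT20, of 20 measured, by the brightest probe set, and the smallest adjusted p was 0.27. Arntl, the BMAL1 gene, had 9.13, 8.80, 9.56 and 8.87 in the high fat arrays, against 8.42, 9.03, 9.21 and 8.11 in the control arrays. The groups overlapped, and the difference was 0.40 ± 0.28 (SE, adjusted p = 0.545). The output genes Dbp and Tef differed by 0.38 ± 0.17 and 0.22 ± 0.11 (SE; adjusted p = 0.27 and 0.353), with overlapping groups in both. Per3, Per2 and Per1 differed by 0.24, 0.23 and -0.12, and Cry2 and Cry1 by 0.15 and -0.07. Nfil3, a repressor of output genes, differed by -0.31 ± 0.18 (SE, adjusted p = 0.44), Nr1d2, the gene of a REV-ERB receptor, by -0.17, and Fbxl21 by -0.16. Bhlhe40, Npas2 and Csnk1d, a casein kinase gene, differed by 0.15, 0.13 and 0.11. A dimmer probe set of Csnk1d differed by 0.29 and passed in a fit over all probe sets with a gene (adjusted p = 0.0275). Clock and Ciart each differed by 0.05, Rora and Bhlhe41 by -0.03, Hlf by -0.04 and Csnk1e by -0.08. The list's median was 0.05, with 11 positive differences of 20, near the 51.3% of all genes.

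By their brightest probe sets, cell division and keratinocyte identity genes did not pass either. None of 27 S phase genes (median -0.03) or 23 mitosis genes (median 0.04) passed. The basal keratinocyte list had 15 positive differences of 17, against 51.3% of all genes, with a median of 0.09. The largest, for the integrin gene Itgb4, was 0.31 (adjusted p = 0.317). Plec, which encodes a linker of hemidesmosomes to keratins, differed by 0.22 (adjusted p = 0.0724). Its other probe sets differed by 0.32 and 0.35 and passed in the fit over all probe sets (adjusted p = 0.0275 and 0.0483). None of 23 suprabasal (median -0.01) and 18 hair follicle bulge genes (median 0.07) passed. Among 27 matrix and niche genes the type IV collagen gene Col4a1 differed by 0.62 (adjusted p = 0.0868), and the fibrillar collagen gene Col3a1, also a fibroblast marker, by 0.61 (adjusted p = 0.271), and none passed. The NF-kB and prostaglandin list had the highest median of the 33 lists, 0.13, with 16 positive differences of 19, against 51.3% of all genes. None of its members passed, and Cxcl10 had the largest difference at 0.64 (adjusted p = 0.153). By the brightest probe sets no member passed among glycolysis (16 measured, median 0.07), antioxidant (21, -0.06), p53 (19, 0.03), stress keratin (17, 0.03), barrier lipid (17, -0.02), interferon (16, 0.03), immediate early (24, 0.04), Wnt (25, 0.05), retinoid (20, 0.00) and insulin and IGF genes (19, 0.01). Where listed genes did not pass by the brightest probe set, 553 other probe sets of 340 pathway list genes were available, and 10 of them in 9 genes passed in the fit over all 28898 probe sets, of which 0.699% passed. These 9 were Plec, Csnk1d, Sel1l, the ribosomal genes Rpl22 (-0.45) and Rpl23 (-0.17), the p53 list genes Trp53inp1 (-0.89, adjusted p = 0.0276) and Sesn1 (-0.81, adjusted p = 0.0239), Wnt5a, a Wnt ligand gene (0.62, adjusted p = 0.0221), and the mitosis gene Cenpe. Their brightest probe sets differed by -0.69 in Trp53inp1, -0.34 in Sesn1 and 0.54 in Wnt5a. In Cenpe the dim probe set differed by 0.57 and the brightest by -0.01. None of 55 other probe sets of 37 marker genes passed. By the brightest probe sets, 10 of the 33 lists held the 15 listed genes that passed of 697 distinct genes (2.15%), against 0.702% of all genes. Of them 6 were higher and 9 lower, against 0.31% and 0.392% of all genes. The lists were chosen with earlier results of these data known, so the share is a description.

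Mice killed on 1 day belonged to 1 time point, so in what follows zeitgeber time and collection day cannot be told apart. To ask whether the diet differences were particular to ZT20, the difference at ZT20 was set against the mean of the diet differences at the other 5 time points in the same fit. That contrast passed for 387 genes (2.26%), 110 higher (0.643%) and 277 lower (1.62%). Of the 120 genes that differed at ZT20, 76 passed it, 27 of the rises and 49 of the falls. Since the contrast holds the same ZT20 difference that chose these genes, the counts are a description and no support for it. Smpdl3a had the largest such value among the 10 genes with the smallest adjusted p, with -0.62 at ZT20 and between -0.16 and 0.54 at the other time points (contrast -0.86 ± 0.12, SE, adjusted p = 6.09e-04). Synj1 had 0.59 at ZT20 and -0.72 to 0.08 elsewhere (contrast 0.79, adjusted p = 8.76e-04). Kmt2c had 0.30 at ZT20, 0.11 at ZT4 and negative differences at ZT0, ZT8, ZT12 and ZT16, down to -0.48 (contrast 0.47 ± 0.06, SE, adjusted p = 5.46e-04). Kmt2d followed the same course, with 0.35 at ZT20 and -0.47 at ZT12 (contrast 0.50, adjusted p = 8.76e-04). Brd7 had -0.43 at ZT20 and 0.01 to 0.26 elsewhere (contrast -0.50, adjusted p = 6.97e-04). The other 5 were Hspe1 (-0.43), Ywhaq, a 14-3-3 gene (-0.39), Eloc, an elongin subunit gene (-0.37), Rps21 (-0.37) and Btf3 (-0.27). At ZT20 alone, the other probe sets of Ywhaq differed by -0.04, -0.27, -0.09 and -0.25, and those of Eloc by -0.04, -0.46 and -0.35.

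Apbb3 and Golt1b were also among the genes past this contrast (0.99 and -0.82), whereas Smox (0.28, adjusted p = 0.199), Tgfb1 (0.54, adjusted p = 0.202) and Egfr (0.27, adjusted p = 0.0636) were not. The diet difference of Smox was 0.54 at ZT20 and between 0.10 and 0.42 at every other time point. That of Tgfb1 was 0.80 at ZT20 and 0.87 at ZT12. Parva likewise had 0.54 at ZT20 and 0.87 at ZT12. Of the 120 genes, 3 also differed between the diets at ZT0, 0 at ZT4, 27 at ZT8, 47 at ZT12 and 5 at ZT16, against 0.854%, 0.386%, 8.34%, 18% and 1.24% of all genes. Of those at ZT8, 21 had the opposite sign, and at ZT12, 33 had the opposite sign. The contrast depended on those times. It passed for 28 genes without the arrays of ZT8 and ZT12, for 225 without ZT8 and for 93 without ZT12. Against ZT16 alone 93 genes (0.544%) passed, 19 of them among the 120, and against ZT0 alone 88 (0.515%), 18 of them among the 120. These contrasts share the arrays of ZT20.

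**Figure D4:**
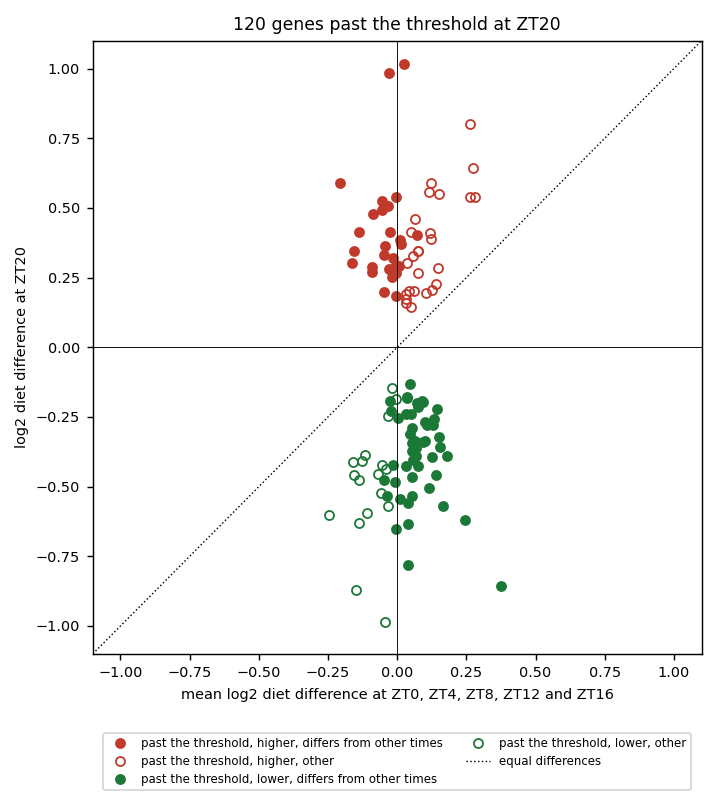
Log2 diet difference (high fat minus control) of the 120 genes at ZT20 on the vertical axis, against its mean over the other 5 time points on the horizontal axis; filled dots passed the test of the difference between the 2 values. Of the 120 dots, 76 are filled, 27 of them above 0 on the vertical axis and 49 below it.

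The 4 lists with the lowest medians at ZT20 had positive medians at ZT8 and ZT12, and medians at or below 0 at ZT0, ZT4 and ZT16. Median differences of the oxidative phosphorylation genes were -0.01 at ZT0, -0.11 at ZT4, 0.31 at ZT8, 0.34 at ZT12, -0.07 at ZT16 and -0.21 at ZT20. Those of the cytosolic ribosomal protein genes were -0.06, -0.04, 0.22, 0.22, -0.03 and -0.10 in the same order, and those of the mitochondrial ribosomal protein genes -0.11, -0.06, 0.32, 0.42, -0.04 and -0.13. The proteasome medians were 0.00, -0.10, 0.25, 0.35, -0.08 and -0.11. Over all genes the medians lay between -0.00 and 0.05 at all 6 time points. Against the mean of the other time points, 9 of 34 oxidative phosphorylation genes, 14 of 31 cytosolic ribosomal protein genes and 5 of 31 proteasome genes passed in the lower direction, with 2 of 26 mitochondrial ribosomal protein genes, against 1.62% of all genes. That mean includes the positive differences at ZT8 and ZT12, and these list counts were not made without those arrays. In the higher direction 5 of 24 histone list genes passed, against 0.643% of all genes. The histone list had a median of -0.28 at ZT8, -0.03 at ZT12 and 0.05 at ZT20. The ZT8 groups hold 2 arrays per diet, so their medians rest on few arrays. Time point and collection day cannot be told apart in these medians either.

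**Figure D5:**
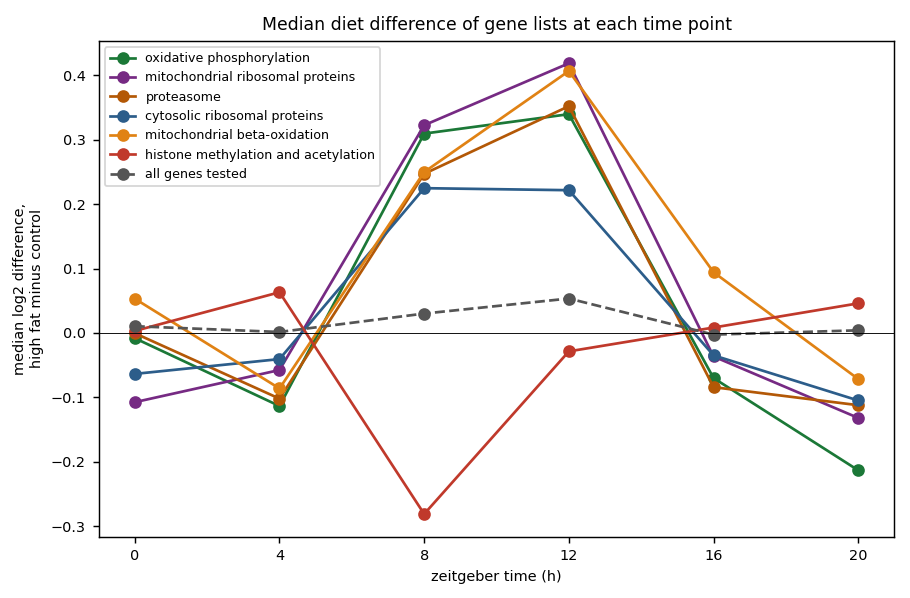
Median log2 diet difference (high fat minus control) of 6 gene lists and of all genes tested, in dashed grey, at each of the 6 zeitgeber times. Oxidative phosphorylation, ribosomal and proteasome lists lie above 0 at ZT8 and ZT12 and below 0 at ZT20.

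The promoters of the genes that passed were searched for the E-box CACGTG, the sequence bound by BMAL1 and CLOCK, since the cells were sampled around the clock. Sequences of the RefSeq promoter table (250 bases before to 50 after a gene's start, build GRCm38.p6) were available for 43 of the 53 genes that rose and 55 of the 67 that fell. The E-box, which reads the same on both strands, was in 4 of 43 (9.30%) and 7 of 55 (12.7%), against 7.24% of all 27025 promoters in the table. Among the 13605 tested genes with a promoter in the table it was in 9.004%, about the share of the rises. These are 79.6% of all genes tested, fewer than 80%, so a check against that set is void and the shares are given as a description. The ROR element core TAGGTCA, searched on both strands, was in 0 of either set. It was in 2.64% of all promoters in the table and in 2.23% of those of tested genes. With shares this low, 0 in sets of this size says little. For each direction the promoters of the 2 genes with the E-box closest before the start are shown, 5′ to 3′ on the gene's strand, with the E-box in capitals. Inf2, a formin gene, and Rce1, a protease gene of prenylated proteins, rose. Atg14 and Commd3 fell.
Inf2 (chr12:112588517-112588816, plus strand): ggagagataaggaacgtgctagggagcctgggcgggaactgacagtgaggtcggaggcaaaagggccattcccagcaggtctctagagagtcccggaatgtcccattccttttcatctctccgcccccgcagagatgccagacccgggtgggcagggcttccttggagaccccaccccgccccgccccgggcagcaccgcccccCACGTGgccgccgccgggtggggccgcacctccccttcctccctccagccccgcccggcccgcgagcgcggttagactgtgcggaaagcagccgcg
Rce1 (chr19:4625596-4625895, minus strand): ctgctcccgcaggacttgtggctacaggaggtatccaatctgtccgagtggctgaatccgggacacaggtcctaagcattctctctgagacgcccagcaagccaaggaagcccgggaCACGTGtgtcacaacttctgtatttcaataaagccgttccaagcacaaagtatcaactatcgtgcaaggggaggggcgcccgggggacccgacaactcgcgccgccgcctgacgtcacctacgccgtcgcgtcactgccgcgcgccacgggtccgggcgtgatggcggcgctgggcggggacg
Atg14 (chr14:47568385-47568684, minus strand): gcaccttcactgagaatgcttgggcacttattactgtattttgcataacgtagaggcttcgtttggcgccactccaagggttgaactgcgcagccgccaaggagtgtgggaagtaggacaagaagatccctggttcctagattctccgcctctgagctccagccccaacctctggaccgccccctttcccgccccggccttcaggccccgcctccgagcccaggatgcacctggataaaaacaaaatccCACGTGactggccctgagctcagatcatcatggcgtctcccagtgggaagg
Commd3 (chr2:18672185-18672484, plus strand): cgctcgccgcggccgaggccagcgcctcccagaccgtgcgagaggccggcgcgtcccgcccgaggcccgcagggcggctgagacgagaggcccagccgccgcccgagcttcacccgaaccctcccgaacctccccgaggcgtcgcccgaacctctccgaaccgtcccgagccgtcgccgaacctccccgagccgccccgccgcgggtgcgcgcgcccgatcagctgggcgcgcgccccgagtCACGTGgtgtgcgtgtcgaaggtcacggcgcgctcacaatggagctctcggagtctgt
The E-box began 46 bases before the start in Inf2, 133 in Rce1, 1 in Atg14 and 8 in Commd3. Inf2 had 10.48, 10.53, 10.51 and 10.35 in the high fat arrays, against 10.22, 10.31, 10.27 and 10.34 in the control arrays, a difference of 0.18 ± 0.04 (SE, adjusted p = 0.0217). Rce1 had 8.41, 8.76, 8.33 and 8.35 in the high fat arrays, against 7.98, 8.08, 8.15 and 8.15 in the control arrays, a difference of 0.37 ± 0.08 (SE, adjusted p = 0.0275). Commd3 had 9.08, 8.96, 8.74 and 8.88 in the high fat arrays, against 9.35, 9.14, 9.48 and 9.59 in the control arrays, a difference of -0.48 ± 0.11 (SE, adjusted p = 0.0283). A match to these letters is a description and not evidence of binding.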

How the data were processed

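RNA of 41 samples was measured on microarrays, 1 array per sample. Total RNA (25 ng) went through 17 cycles of WTA2 amplification before biotin labelling of 8 µg cDNA, per the labels' protocols. The authors made the deposited log2 values with RMA, per the submitters' processing notes, which corrects background, normalizes between arrays and summarises probes. The RMA version is not given in the sources used here, and the log2 scale rests on the range of the values, 2.17 to 13.5. Signal over background is unknown because scanner files were not used here, and precision is limited by how many arrays each group holds.

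Of 45141 probe sets, the annotation names 1 gene for 28898 and several for 551. It leaves 15588 unnamed, and 104 are control probe sets. Where a gene had several probe sets (7180 of 17097 genes), the one with the highest mean stood for it. Symbols were matched to the reference table for 17055 genes. A mean for each of the 12 diet by time groups was fitted to all 41 arrays in limma 3.58.1 (lmFit and eBayes, R 4.3.3, 29 residual and 2.63 prior degrees of freedom), and high fat was contrasted with control at ZT20. Contrasts of that difference with the mean of the other time points, ZT16 and ZT0 came from the same fit. P-values were adjusted by Benjamini-Hochberg across the 17097 genes, without a filter on low values, and called under 0.05. The procedure was tested on simulated data. Files were read with data.table (version 1.17.8), and counts and figures were made with Python 3.11.15, pandas 2.3.3 and matplotlib 3.10.9.

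Genes were named as the 20 largest rises and 20 largest falls past the threshold, every list member past it, all measured clock genes, the 10 smallest adjusted p of the contrast with the other time points among genes past the threshold, and up to 4 members per list. Predicted genes were passed over (2 of the 120). Some other genes past the threshold, such as Egfr and Ubr4, were named after their values were seen. The genes in 33 pathway lists and 12 marker lists (792 of 886 symbols measured) are described by counts and medians without a set test. The comparison, the lists and the rules were chosen with earlier results of these data known. Alternatives were the 8 arrays alone, no ZT8 and ZT12 arrays, other probe set rules, a filter on dim genes, a trended and robust prior, weights per array, centring on array medians, a residual component, a replicate block and leaving out each array. Leaving out ZT8 or ZT12 alone was added after seeing the data.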

Additional observations from a re-analysis of the deposited data

Results flagged for a closer look

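In 14 of 242 groups of 4 arrays tested (76 genes and 45 list means in each diet), 1 array stood apart from the other 3 by more than Dixon's 95% limit, which chance gives in about 1 in 20 groups. High fat replicate 2 stood apart in Itga5 (7.22, the others 5.68 to 5.82), Hadhb (9.40, the others 9.29 to 9.30), Atg14 (6.98, the others 7.39 to 7.45) and Sh3bp4 (8.06, the others 8.64 to 8.68). High fat replicate 3 stood apart in Kmt2b (9.28, the others 9.51) and Rnf122 (6.48, the others 6.74 to 6.78). High fat replicate 1 had the highest mean of the cytosolic ribosomal proteins (11.58, the others 11.50 to 11.51) and of the autophagy and lysosome genes (9.51, the others 9.44 to 9.45). Control replicate 2 stood apart in Btf3 (11.54, the others 11.63 to 11.65) and Dbp (7.07, the others 6.71 to 6.73). It also stood apart in the means of the mitosis genes (7.54, the others 7.65 to 7.67), the matrix and niche genes (7.22, the others 7.11 to 7.13) and the Langerhans cell and leukocyte markers (7.25, the others 7.33). Control replicate 1 stood apart in Per3 (7.96, the others 7.63 to 7.67).

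The diet difference at ZT20 differed from the mean of the other time points in 387 genes, from that at ZT16 in 93 and from that at ZT0 in 88 (limma, adjusted p under 0.05). Among genes also past the threshold at ZT20, the 10 with the smallest adjusted p were Kmt2c (contrast 0.47), Brd7 (-0.50), Smpdl3a (-0.86), Btf3 (-0.27), Ywhaq (-0.39), Eloc (-0.37), Hspe1 (-0.43), Synj1 (0.79), Rps21 (-0.37) and Kmt2d (0.50).

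Of 15588 probe sets without a gene in the annotation, 55 differed between the diets at ZT20, 34 higher and 21 lower on the high fat diet, in a fit to all probe sets.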

How the results depend on the processing

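Against 120 genes (53 higher, 67 lower), the 8 arrays alone gave 0 (0 higher, 0 lower), omission of ZT8 and ZT12 arrays 188 (92 higher), of ZT8 alone 210 (99 higher, 111 lower), array weights 360 (149 and 211) and a residual component as covariate 332 (136 and 196). Leaving out each array in turn gave 20 to 302 genes, 8 to 106 higher and 10 to 196 lower. Subtracting array medians of all probe sets or of the tested genes left 32.6% or 33.1% of calls higher, against 44.2%, and subtracting those of the tested genes gave 117 lower. Arrays of the same replicate number had correlations across diets of -0.22, 0.04, -0.14 and 0.01. So few values cannot settle whether equal numbers share a collection day. A replicate block gave 0 genes (0 higher, 0 lower), with 2264 at an unadjusted p under 0.05 and a smallest adjusted p of 0.0507. The contrast with the other time points (387 genes) gave 28 without ZT8 and ZT12, 225 without ZT8, 93 without ZT12, 656 with array weights, 622 with the residual component, 137 with the block and 162 to 723 with each array left out. Against ZT16 (93 genes) these were 206, 192, 17 and 47 to 107 for weights, component, block and left-out arrays, and against ZT0 (88 genes) 259, 191, 43 and 34 to 123. The cause of these shifts was not tested. Averaging the probe sets of each gene gave 152 genes, 77 of them among the 120, and 108 of the 120 had an unadjusted p under 0.05. All 120 genes kept their direction in each of these fits that tested them. That was fixed in advance where only the estimate of spread changed. It was largely fixed where an array was left out, since 111 of the genes had groups without overlap. Of the 120, 7 (Apbb3, Brd7, Btf3, Hspe1, Smox, Smpdl3a and Ubr4) passed in 18 of 20 settings, all but the 8 arrays alone and the block. Of 104 other probe sets of the called genes, 82 had the same sign. In 41 of the 58 called genes with another probe set, every other probe set had the same sign. The other probe sets of genes named by rule that turned were Synj1 (-0.18), Agap1 (-0.27 and -0.24), Ahdc1 (-0.0082), Sh3kbp1 (-0.23 and -0.042), Btbd3 (0.079) and Sh3bp4 (0.086). Those of the remaining called genes are not listed. No other probe sets are given for genes named outside the rules, such as Egfr, Ubr4 and Inf2.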
